A study of Mus with 14 samples.

Results

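Blood-forming stem cells persist by self-renewal, in which a dividing stem cell leaves at least 1 daughter that remains a stem cell. The 8 genes described here are widely used to mark or maintain that state: the transcription factors Hlf, Mecom, Meis1 and Prdm16, the surface proteins Procr, Ly6a and Slamf1, and Ctla2a. They were taken as a named list, chosen with earlier results of these data known. All 8 of the 32285 genes in the files were then followed whatever their values. Hlf and Mecom encode factors needed to keep stem cells in a long-lived, slowly dividing pool. Meis1 partners HOX proteins on DNA and Prdm16 is a PR-domain relative of Mecom. Procr is the endothelial protein C receptor, Ly6a is the Sca-1 antigen and Slamf1 is CD150. Ctla2a resembles the propeptide of a cysteine protease and is thought to act as an inhibitor.

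Single-cell RNA was measured in 14 mice by droplet 3' sequencing, 1 library per mouse. Bone marrow was taken 20 weeks after a second transplantation into aged, lethally irradiated CD45.1+ hosts, and the sorted cells were Kit-positive, negative for lineage markers and derived from the CD45.2+ donor. There were 3 MxCre mice, 4 Dnmt3a mice, 3 mice labelled Dnmt3a;Tnfr1KO and 4 labelled Dnmt3a;Tnfr2KO. MxCre is a Cre recombinase driven by an interferon-inducible promoter, and the primary recipients of all 4 groups received poly(I:C), which switches it on. DNMT3A is a DNA methyltransferase that is often mutated in clonal hematopoiesis, the expansion of 1 blood clone with age. Tnfr1KO and Tnfr2KO name knockouts of the receptors for tumor necrosis factor. The labels do not give the Dnmt3a allele, or say which mice shared a donor, so p-values measure only the spread between these mice.

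After filtering, 66895 cells were kept, 1924 to 7265 per mouse, with a median of 10548 to 39086 unique molecular identifiers (UMIs, which count RNA molecules) per cell. Dnmt3a replicate 1 kept 26.5% of its barcodes, the lowest share, and libraries shared at most 0.358% of barcodes. Tnfrsf1b was lower in the 4 Dnmt3a;Tnfr2KO mice (4.32 to 5.49 UMIs per 1000000 UMIs, CPM) than in the other 10 mice (10.5 to 16.9). Tnfrsf1a in the Dnmt3a;Tnfr1KO mice (33.9 to 42.1) overlapped the other groups (32.3 to 68.0). Dnmt3a transcript was 27.7 to 33.1 in the Dnmt3a group and 22.3 to 28.2 in MxCre mice, which overlapped. It was 21.3 to 22.4 in Dnmt3a;Tnfr1KO and 22.7 to 25.2 in Dnmt3a;Tnfr2KO mice, both below the Dnmt3a group. The part of this difference in the receptor comparisons was not tested. A 3' tag outside a deleted or mutated exon checks neither genotype.

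Cells were placed in lineages by UMIs of stated marker genes after each cell was thinned to 5000 UMIs, which 60026 cells reached. Those without lineage markers numbered 12993, and 4558 of them held at least 3 UMIs from at least 2 of 12 stem markers, none of which is among the 8 genes. These are called stem-marker cells. Angpt1 supplied 45.9% and Gcnt2 23.1% of the stem-marker UMIs, so the class leans on these 2 genes. Of 19 lineage markers kept out of the gates, 17 were highest in their own lineage. The exceptions, Lcn2 and Camp, late granulocyte genes, were highest in unmarked cells without stem markers (849 and 2270 CPM) and low in stem-marker cells (2.36 and 6.07). Of 3 markers of early cells, Kit was highest in stem-marker cells, but Cd34 (287 there) and Tespa1 (94.3) were highest in lymphoid-primed cells (407 and 100.03).

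All 8 genes were detected, and 49.0% of thinned cells held a UMI of at least 1 of them. The levels below are CPM of the UMIs summed over a class within a mouse, averaged over mice. Because 3' tags differ between genes in capture, levels are compared between classes and mice but not between genes. Each neighbouring pair of classes in a gene's order was tested by an exact two-sided sign-flip test over mice, with 48 tests adjusted together by Benjamini-Hochberg (BH). The orders cover 7 classes. B-lymphoid, other lymphoid and lymphoid-primed cells were too few in most mice and stand outside them. Stem-marker and other unmarked cells were split by the stem-marker gate, mostly Angpt1 and Gcnt2. Over sums of mouse and class, Gcnt2 was the gene most like Hlf (Pearson r = 0.94) and Angpt1 the most like Meis1 (0.96). The step between these classes was thus partly set by the gate, and its p-values are descriptions.

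Hlf, the gene at chr11:90336535-90390917 of GRCm38, was highest in stem-marker cells at 224, followed by other unmarked cells at 110 and megakaryocyte-lineage cells at 37.0. Hlf fell further to 16.4 in granulocyte-lineage, 6.28 in monocyte-lineage and 3.76 in erythroid cells. The step from stem-marker to other unmarked cells was downward in 14 of 14 mice (exact adjusted p = 0.000651). The steps between megakaryocyte-lineage and basophil or mast cells (27.8) did not pass (exact adjusted p = 0.279). Lymphoid-primed cells, outside this order, held Hlf at 117 in Dnmt3a replicate 1 and 59.2 in Dnmt3a;Tnfr2KO replicate 3. They held 47.8, 79.8 and 107 in the Dnmt3a;Tnfr1KO mice. All of these lie above the megakaryocyte-lineage mean of 37.0, a difference that was not tested. Mecom (chr3:29951296-30509759) followed a similar order, from 70.3 in stem-marker cells to 34.4, 24.9, 11.2 in basophil or mast cells, 5.06, 1.96 and 1.83. Its last 2 classes, erythroid and monocyte-lineage cells, did not differ beyond the spread between mice (exact adjusted p = 0.771).

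Meis1 (chr11:18880428-19019651) averaged 217 in megakaryocyte-lineage cells and 209 in stem-marker cells, and this difference did not pass the test (exact adjusted p = 0.200). Other unmarked cells stood at 128 and erythroid cells at 21.1. Slamf1 (chr1:171767131-171801184), a receptor that is also used to enrich megakaryocyte progenitors, was higher in megakaryocyte-lineage cells (21.8) than in stem-marker cells (13.7) in 12 of 12 mice (exact adjusted p = 0.00107). Erythroid cells (8.90) and other unmarked cells (8.78) did not differ beyond the spread between mice. Granulocyte-lineage cells held 0.454.

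Procr (chr2:155751125-155755478) averaged 16.4 in stem-marker cells, 5.63 in other unmarked cells, 1.73 in megakaryocyte-lineage cells and 0.0365 in erythroid cells. The first of these steps was downward in 13 of 14 mice (exact adjusted p = 0.000781). With every cell thinned to the same depth, 10.1% of stem-marker cells held a Procr UMI against 1 of 5706 erythroid cells (0.0175%), and the unthinned shares were 19.3% and 0.0876% at median depths of 13026 and 16770 UMIs. Ly6a (chr15:74994877-74998031) stood at 54.0, 23.9 and 6.00 in the same first 3 classes, and was detected in 20.3% of lymphoid-primed and 11.8% of B-lymphoid cells. Its mean CPM was higher in these lymphoid classes than in stem-marker cells, at 76.9 in B-lymphoid (4 mice, 25.8 to 121) and 69.6 in lymphoid-primed cells (5 mice, 10.4 to 149), a difference that was not tested. Ctla2a (chr13:60934155-60936625) was broad, at 879 in stem-marker, 677 in megakaryocyte-lineage, 632 in other unmarked and 505 in basophil or mast cells, down to 19.3 in monocyte-lineage cells. Ctla2b, its near-identical neighbour at chr13:60895351-60897934, and the Ly6 relatives of Ly6a can exchange reads with these genes, so the split between copies is uncertain.

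**Figure D1:**
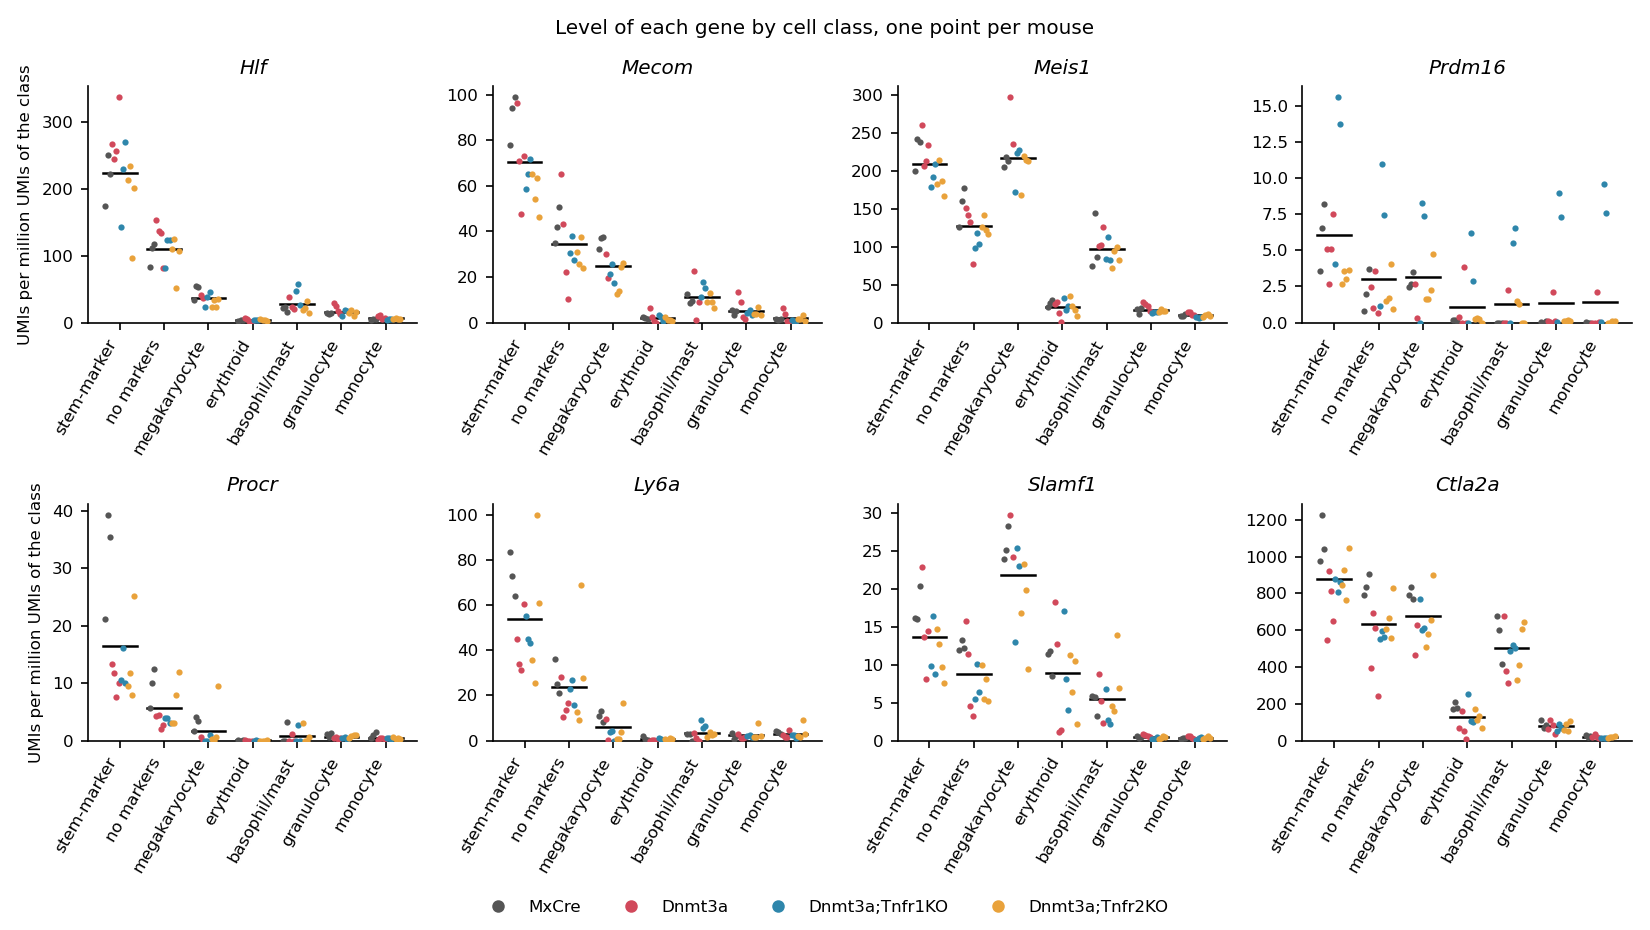
Level of each gene (vertical axes, CPM of the class, linear and starting at 0) in 7 cell classes, with 1 point per mouse coloured by group. Among these classes, which leave out the lymphoid ones where Ly6a averaged 69.6 and 76.9, Hlf, Mecom, Procr and Ly6a are highest in stem-marker cells, whereas Slamf1 is highest in megakaryocyte-lineage cells and Meis1 averages 209 and 217 in these 2 classes.

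Prdm16 (chr4:154316122-154637360) was the sparsest of the 8. Its stem-marker level averaged 6.07 and megakaryocyte-lineage cells held 3.12, while lymphoid-primed cells of 5 mice averaged 6.28 on 18 UMIs in all. The lymphoid-primed values were 14.2 and 12.1 in Dnmt3a;Tnfr1KO replicates 2 and 3, and 0.698, 1.59 and 2.82 in the remaining mice. In granulocyte-lineage cells Prdm16 was near 0 in 11 mice (0 to 0.184 CPM, 0 to 12 UMIs per mouse). The other 3 mice held 2.12 (170 UMIs, Dnmt3a replicate 3), 8.95 (340 UMIs, Dnmt3a;Tnfr1KO replicate 2) and 7.28 (282 UMIs, Dnmt3a;Tnfr1KO replicate 3). The same 3 mice stood out in monocyte-lineage cells at 2.12, 9.57 and 7.61, where each other mouse held at most 0.0859. Erythroid cells of these mice held 3.85, 6.23 and 2.89, and at most 0.404 elsewhere. Over these 3 lineages 0.63% to 4.76% of thinned cells held a Prdm16 UMI in the 3 mice, and 0% to 0.556% in the other 11. Of the 200 such cells in the 3 mice, 8 held more than 1 UMI. Whether the UMIs came from free RNA in the droplets was not tested.

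The Hlf level in granulocyte-lineage cells of those 3 mice was 16.7, 19.2 and 17, inside the range of 10.5 to 29.1 over all 14. For the 19 genes within 1 Mb of Prdm16 with at least 20 UMIs in every granulocyte-lineage sum, the highest mouse was 1.37 to 8.09 times the lowest, with a median of 1.86. Over 10901 such genes the median ratio was 1.78. Stromal marker sums in granulocyte-lineage cells were 0.048 to 0.61 CPM over the 14 mice. In stem-marker cells stromal sums were 38 and 19.4 and macrophage sums 31.5 and 21.2 in Dnmt3a;Tnfr1KO replicates 2 and 3, against 0.814 to 17.6 and 1.63 to 14.3 over the other 12 mice. Dnmt3a replicate 3 held 0.814 and 3.66. Their part in the Prdm16 levels of stem-marker cells was not tested.

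**Figure D2:**
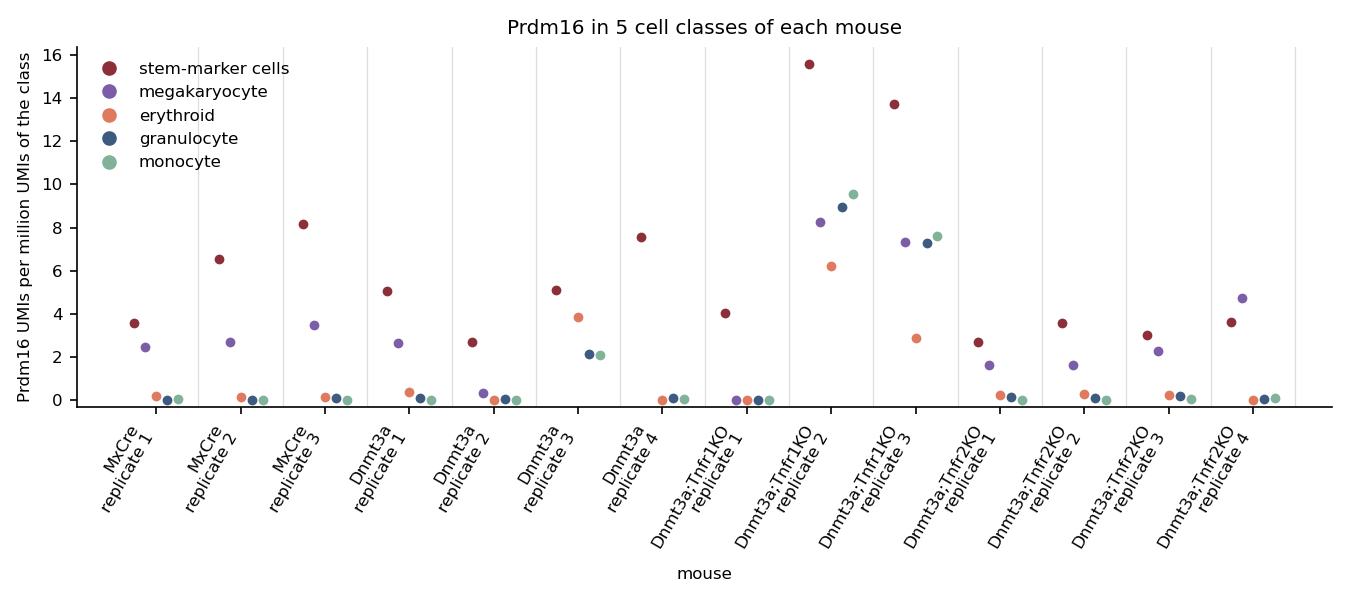
Prdm16 level (vertical axis, CPM of the class) in 5 cell classes of each of the 14 mice, with 1 point per class. Granulocyte-lineage, monocyte-lineage and erythroid points lie near 0 in 11 mice and above 2 in Dnmt3a replicate 3 and Dnmt3a;Tnfr1KO replicates 2 and 3.

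The first comparison asked how the genes differed between Dnmt3a and MxCre mice. Procr fell in stem-marker cells, in all cells without lineage markers and over all cells, and Ctla2a fell in stem-marker cells. The 4 transcription factors did not pass edgeR's test in any of these 3 classes, although Meis1 passed over all cells with DESeq2 (log2 fold change -0.96; adjusted p = 0.0265) and Mecom in stem-marker cells with no filter on low counts (-0.45; edgeR adjusted p = 0.0221). DESeq2 called 5.96% to 9.87% of all genes over the 3 classes, and the share called with no filter is not given here. UMIs were summed per mouse and tested with edgeR's quasi-likelihood test, adjusted by BH over all genes of the comparison, with adjusted p below 0.05 as the threshold. In sums over any of these classes, the stem-marker class included, fewer cells of a type and less RNA per cell cannot be told apart.

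Procr in stem-marker cells was 21.2, 39.2 and 35.4 CPM in the MxCre mice. The 4 Dnmt3a mice held 13.3, 11.7, 7.53 and 10.1. Every Dnmt3a mouse lay below every MxCre mouse, with means of 10.6 ± 2.45 (SD, n = 4) and 31.9 ± 9.54 (SD, n = 3). The log2 fold change was -1.66 (SE 0.29; edgeR adjusted p = 0.00428). It was called in 16 of 16 alternative settings, between -1.88 and -1.51.

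The share of thinned stem-marker cells with a Procr UMI was also lower in every Dnmt3a mouse than in every MxCre mouse. It was 11% (95% exact binomial interval 8.51 to 13.9), 17.2% (13.3 to 21.6) and 15.9% (13.7 to 18.3) in the MxCre mice. The Dnmt3a mice held 5.88% (2.86 to 10.6), 4.59% (2.22 to 8.27), 5.0% (2.94 to 7.88) and 5.56% (1.53 to 13.6). These intervals cover counting error only, those of Dnmt3a replicates 1 and 4 overlap the interval of MxCre replicate 1, and that of Dnmt3a replicate 4 also overlaps MxCre replicate 2.

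Over all cells Procr stood at 2.72, 5.01 and 9.25 in MxCre and 1.31, 1.52, 0.801 and 0.688 in Dnmt3a mice. Again the groups did not overlap. The log2 fold change was -2.45 (SE 0.45; edgeR adjusted p = 0.0299), and in cells without lineage markers it was -1.81 (SE 0.38; edgeR adjusted p = 0.0283). The call over all cells held in 9 of 15 alternatives and was lost without MxCre replicate 2 or 3, Dnmt3a replicate 1 or 3, or both of Dnmt3a replicates 1 and 4, and with only the 2 groups in the fit (highest adjusted p 0.134). The call in cells without lineage markers held in 11 of 16 and was lost without MxCre replicate 2 or 3, Dnmt3a replicate 3, or both of Dnmt3a replicates 1 and 4, and with only the 2 groups (highest adjusted p 0.149).

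Ctla2a in stem-marker cells was 978, 1226 and 1042 in the MxCre mice and 547, 922, 810 and 648 in the Dnmt3a mice. The groups did not overlap, and the means were 1082 ± 129 (SD, n = 3) and 732 ± 167 (SD, n = 4). The log2 fold change was -0.64 (SE 0.17; edgeR adjusted p = 0.032). This call held in 9 of 16 alternatives. It was lost without any 1 of the 3 MxCre mice, without Dnmt3a replicate 1 or 4, and with only the 2 groups in the fit (highest adjusted p 0.149). It was also lost without both of Dnmt3a replicates 1 and 4, where the log2 fold change was -0.33 (edgeR adjusted p = 0.194). Ctla2b, which can share its reads, fell as well (-0.66; edgeR adjusted p = 0.0355), although its groups overlapped.

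Ly6a in stem-marker cells was 83.4, 73.0 and 64.0 in the MxCre mice and 44.8, 33.7, 31.1 and 60.3 in the Dnmt3a mice. These values did not overlap, but the log2 fold change of -0.94 (SE 0.29) did not pass (edgeR adjusted p = 0.065). It passed with only the 2 groups in the fit (-0.95; edgeR adjusted p = 0.00964), where Ctla2a did not, and with no filter on low counts (-0.96; edgeR adjusted p = 2.12e-09). With no filter the adjusted p fell at nearly the same fold change. The share of all genes called there is not given, so no conclusion is drawn from passing without the filter. Slamf1 was 16.1, 16.0 and 20.4 against 22.9, 13.7, 8.14 and 14.5, and the ranges overlapped (log2 fold change -0.37; edgeR adjusted p = 0.442). Over all cells its groups did not overlap, at 6.2 to 10.4 against 1.2 to 5.66, where the log2 fold change of -1.26 did not pass (edgeR adjusted p = 0.158).

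The transcription factors overlapped between the groups in stem-marker cells. Hlf was 175, 251 and 222 in the MxCre mice and 267, 244, 257 and 337 in the Dnmt3a mice, a log2 fold change of 0.26 (SE 0.22; edgeR adjusted p = 0.534). Meis1 averaged 227 ± 23.3 (SD, n = 3) and 228 ± 24.5 (SD, n = 4). Mecom ranged from 77.7 to 98.8 against 47.6 to 96.4 (log2 fold change -0.43; edgeR adjusted p = 0.130). Prdm16 ranged from 3.56 to 8.17 against 2.68 to 7.54 (log2 fold change -0.45; edgeR adjusted p = 0.478).

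**Figure D3:**
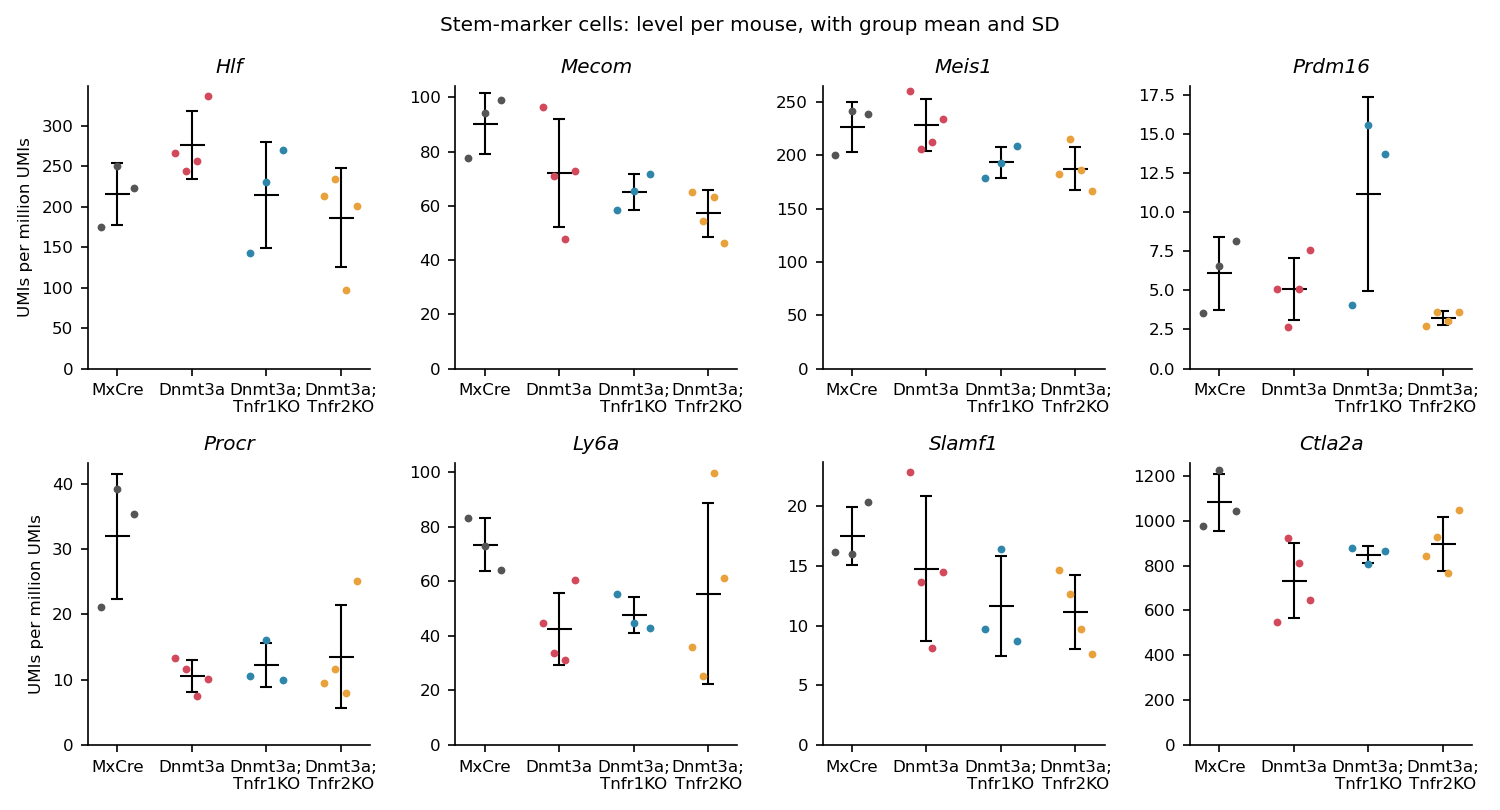
Level of each gene in stem-marker cells (vertical axes, CPM, starting at 0), with 1 point per mouse and the mean and SD of each group. The Procr, Ly6a and Ctla2a points of all 4 Dnmt3a mice lie below those of all 3 MxCre mice, while the Hlf and Meis1 points overlap.

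Thus 2 of 8 genes were called in stem-marker cells, both lower, where 5.67% of 11385 genes tested were called and 3.08% were called and lower. In cells without lineage markers and over all cells 1 of 8 was called, against 3.04% and 2.42% of all genes called, or 1.5% and 1.18% called and lower. Groups did not overlap for Procr, Ly6a and Ctla2a in stem-marker cells and in cells without lineage markers, and for Procr, Slamf1 and Ctla2a over all cells. The share of all genes whose groups did not overlap was 19.2%, 15.6% and 21.6% respectively. The median log2 fold change of the 8 genes was -0.44 in stem-marker cells, where that of all genes was 0.0015, and -1.02 over all cells, where that of all genes was 0.03. The 8 genes were chosen with earlier results of these data known, so these shares are descriptions.

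The 12 genes that define the stem-marker gate chose the cells and are not tested within that class. Over all cells, which the gate does not shape, 3 of the 12 fell in Dnmt3a mice (Esam, Mycn and Tcf15), against 1.18% of all genes called and lower. Sizes of the stem-marker class are not compared between groups.

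Levels of each gene were also set against Hlf within the same mouse, a ratio chosen after the values were seen. In stem-marker cells the log2 ratio of Procr to Hlf ran from -5.07 to -4.32 in Dnmt3a mice and from -3.04 to -2.65 in MxCre mice, a difference of -1.91. Ratios of Ly6a, Ctla2a and Mecom to Hlf also did not overlap, with differences of -1.19, -0.95 and -0.72. These were 4 of 7 ratios, and 19.3% of all genes had ratios to Hlf that did not overlap; Hlf itself was 0.26 higher in Dnmt3a mice. In cells without lineage markers 4 of 7 did not overlap, with Meis1 in place of Mecom, against 11.3% of all genes. The exact two-sided permutation p in stem-marker cells was 0.0571 for each, the smallest that 3 mice against 4 can give, and 0.10 after BH adjustment over 7 ratios.

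Other genes of the stem cell program gave context in the same stem-marker cells and the same fit, in which 5.67% of all genes were called and 3.08% were called and lower. Without the gate genes, 4 of 11 tested surface and signalling genes of stem cells fell and 1 rose. Tgm2, a transglutaminase, fell by 1.97 on the log2 scale, and Vwf, a clotting protein that marks platelet-biased stem cells, fell by 1.81. The Vwf groups overlapped, at 2.04 to 6.51 CPM in Dnmt3a and 5.01 to 25.5 in MxCre mice. Ifitm1 and Ifitm3, membrane proteins induced by interferon, fell by 1.24 and 1.08. The 1 that rose was Cd34 (0.60), a sialomucin that rises as mouse stem cells become progenitors; it was named after its value was seen. Of 16 other transcription factors outside the gate, edgeR called none, and 6 had an unadjusted p below 0.05, against 21.4% to 23.7% of all genes over the 3 classes. DESeq2 called none of the 16, against 5.96% to 9.87% of all genes. Each of these calls had an edgeR adjusted p below 0.05.

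Of 25 tested relatives and partners of the 8 genes, 2 rose and 3 fell, against the same 5.67% of all genes called. Cd48 (0.77) and Cd244a (0.97), the SLAM relatives of Slamf1 that mark progenitors rather than stem cells, both rose, though the Cd48 groups overlapped. Hoxa10, whose protein partners MEIS1, fell by 0.85 with overlapping groups, and F2r, the thrombin receptor that acts with PROCR, fell by 0.84. Mki67, a marker of cycling cells, was the 1 gene of 12 in the G2 and M phase list that rose (1.04), a share near that of all genes called. Of 11 interferon response genes, 4 fell and none rose, against 3.08% of all genes called and lower, with Zbp1 lower by a log2 change of -1.26, Ifi27l2a by -1.01 and Bst2 by -0.54. The summed interferon list in stem-marker cells was 324 to 360 CPM in MxCre and 229 to 286 in Dnmt3a mice. Its part in the lower Ly6a and Procr values was not tested.

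The second comparison asked whether loss of either receptor moved the genes from their Dnmt3a levels. None of the 8 passed edgeR's test in Dnmt3a;Tnfr1KO or Dnmt3a;Tnfr2KO mice in any of the 3 classes, against 0.694% and 0.606% of all genes in stem-marker cells, 0.141% and 0.149% in cells without lineage markers, and 0.461% and 0.998% over all cells. Unadjusted p was below 0.05 for 1 of 8 in each class and comparison, except 0 of 8 over all cells in Dnmt3a;Tnfr2KO, against 13.2% to 23% of all genes over the 3 classes. DESeq2 also called none, but in stem-marker cells it gave no adjusted p to Prdm16, Procr and Slamf1 in Dnmt3a;Tnfr1KO (Prdm16 unadjusted p = 0.000469) or to Prdm16 in Dnmt3a;Tnfr2KO. Groups overlapped for all 8 genes in Dnmt3a;Tnfr1KO against Dnmt3a, where 13.4%, 12.8% and 23% of all genes did not overlap in the same order of classes. Both comparisons share the Dnmt3a mice.

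Procr in stem-marker cells was 10.6, 16.1 and 9.99 in Dnmt3a;Tnfr1KO mice, a log2 fold change of 0.43 against Dnmt3a (SE 0.37; edgeR adjusted p = 0.676). The Dnmt3a;Tnfr2KO mice held 9.45, 11.7, 7.91 and 25.1, a log2 fold change of 0.56 (SE 0.30; edgeR adjusted p = 0.426). Replicate 4 was the high mouse, and 13.2% of its thinned stem-marker cells held a Procr UMI (exact interval 10.1 to 16.7), against 4.32% to 6.73% in the other 3. Ctla2a stood at 878, 806 and 864 in Dnmt3a;Tnfr1KO (log2 fold change 0.34; edgeR adjusted p = 0.380) and 844, 929, 766 and 1048 in Dnmt3a;Tnfr2KO mice (0.42; edgeR adjusted p = 0.256). Both sets of values overlapped those of Dnmt3a mice. In Dnmt3a;Tnfr2KO, Ctla2a passed without Dnmt3a replicate 2 (0.58; edgeR adjusted p = 0.039) and with no filter on low counts (0.42; edgeR adjusted p = 0.0459), and Ly6a passed with no filter (0.49; edgeR adjusted p = 0.026). The share of all genes called with no filter is not given, so no conclusion is drawn from passing there.

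Hlf was lower in each Dnmt3a;Tnfr2KO mouse (213, 234, 97.3 and 201) than in each Dnmt3a mouse (244 to 337). This was 1 of 8 genes whose groups did not overlap, against 7.76% of all genes (none of the 8 did so in the other classes, against 7.03% and 17.5%), and the log2 fold change of -0.39 (SE 0.20) did not pass (edgeR adjusted p = 0.412). Dnmt3a;Tnfr2KO replicate 3 held the lowest Hlf of all 14 mice and the highest Ly6a, at 99.7, where the other 3 mice of its group held 35.8, 25.4 and 61.1. Its interferon list sum was 274, inside the range over the 14 mice.

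Prdm16 in stem-marker cells was 4.06, 15.6 and 13.7 in the Dnmt3a;Tnfr1KO mice and 5.06, 2.68, 5.09 and 7.54 in the Dnmt3a mice. The high values came from replicates 2 and 3, the mice with Prdm16 UMIs in several lineages. The log2 fold change of 1.47 (SE 0.36) did not pass (edgeR adjusted p = 0.0671). Without replicate 1 it was 1.75 and passed (edgeR adjusted p = 0.0296), and without replicates 2 and 3 it was -0.067.

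A direct comparison of the receptor knockouts gave no call among the 8 genes in any class by edgeR, against 0.0615% of all genes in stem-marker cells, 0.102% in cells without lineage markers and 0.198% over all cells. Prdm16 in stem-marker cells was 2.70, 3.60, 3.04 and 3.61 in Dnmt3a;Tnfr2KO mice, below every Dnmt3a;Tnfr1KO mouse. These rested on 12, 25, 5 and 20 UMIs, and the lowest Dnmt3a;Tnfr1KO mouse, replicate 1 at 4.06, on 5 UMIs. Prdm16 was the 1 gene of 8 whose groups did not overlap, against 6% of all genes, and none of the 8 did so in the other classes, against 5.67% and 4.05%. Unadjusted p was below 0.05 for 1 of 8 in each class, against 4.01% to 4.43% of all genes. The log2 fold change of Prdm16 was -1.86 (SE 0.37; edgeR adjusted p = 0.0701, DESeq2 adjusted p = 0.00984). Without Dnmt3a;Tnfr1KO replicate 1 the edgeR adjusted p was 0.0134. Without replicate 2 the log2 fold change was -1.50, and without replicates 2 and 3 it was -0.34. Leaving out both turned it from -1.71 to 0.42 in cells without lineage markers and from -3.59 to 1.51 over all cells. Prdm16 lies 9.07 Mb from Tnfrsf1b, the gene of the Tnfr2KO label, on chromosome 4. Whether sequence linked to that knockout bears on the Prdm16 level was not tested.

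**Figure D4:**
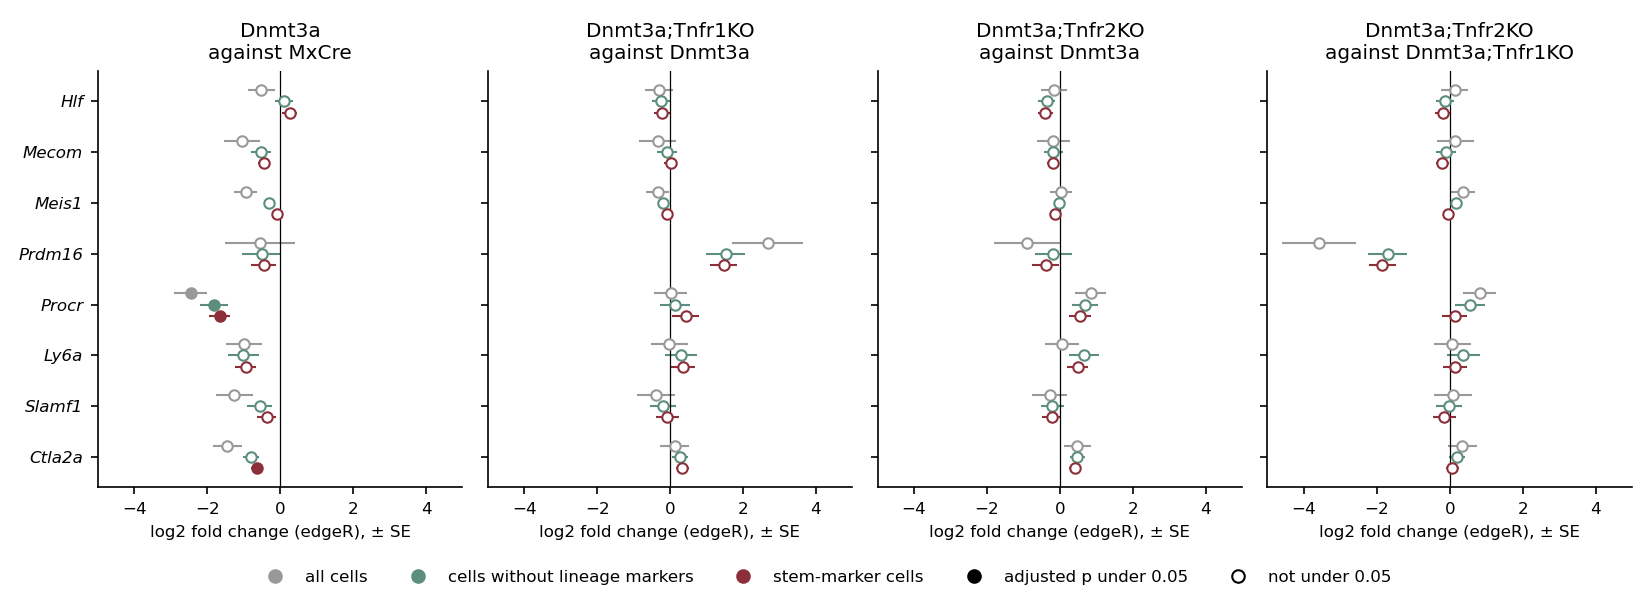
Log2 fold change ± SE (horizontal axes, edgeR) of each gene in the 4 comparisons, with 1 colour per cell class and filled points for adjusted p below 0.05. The filled points are Procr in all 3 classes and Ctla2a in stem-marker cells, each in Dnmt3a against MxCre.

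Within 5 committed lineages (granulocyte, monocyte, megakaryocyte, erythroid, and basophil or mast cell), 33 tests of the 8 genes were possible per comparison, and edgeR called none. Unadjusted p was below 0.05 in 8 of 33 for Dnmt3a against MxCre, 10 for Dnmt3a;Tnfr1KO against Dnmt3a, 2 for Dnmt3a;Tnfr2KO against Dnmt3a, and 6 between the knockouts, against 18.8%, 16.5%, 18% and 3.51% of all genes. DESeq2 called 2, both in Dnmt3a against MxCre: Procr in granulocyte-lineage cells and Ctla2a in megakaryocyte-lineage cells, where it called 4.5% of all genes over the lineages. The megakaryocyte-lineage sums held only Dnmt3a replicates 1 and 2, because replicates 3 and 4 had 13 and 11 such cells, under the minimum of 20. DESeq2 gave no adjusted p in 13 of the 33 tests of Dnmt3a against MxCre. The same held for 9 of 33 in Dnmt3a;Tnfr1KO against Dnmt3a and 13 of 33 in Dnmt3a;Tnfr2KO against Dnmt3a. Over the tests of all genes in these lineages, edgeR called 1.9%, 1.3%, 1.45% and 0.14% in the same order of comparisons.

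Co-detection within single cells was counted in the 12993 thinned cells without lineage markers. The number of cells with both genes was set against the number expected if the 2 were independent within each mouse. Cells share depth and type, so these ratios are descriptions and carry no p.

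Procr and Ly6a were found together in 280 cells where 110 were expected, a ratio of 2.54, above 1 in each of the 5 mice with an expected count of at least 5. Mecom and Procr reached 1.86 (292 cells against 157), Hlf and Procr 1.68 (516 against 307), and Hlf and Ly6a 1.59 (1080 against 680). Hlf and Mecom shared 1488 cells where 1006 were expected, above 1 in 14 of 14 mice. Prdm16 and Procr had the highest ratio, 2.85, but on 43 cells. Counted within stem-marker cells alone, the ratio was 1.91 for Procr and Ly6a and 1.24 for Hlf and Mecom. Over all cells without lineage markers, among those with a Procr UMI, 38% also held Ly6a, against 11.9% of cells without one.

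Ratios with Slamf1 lay on both sides of 1. Hlf and Slamf1 shared 232 cells where 275 were expected, a ratio of 0.84 that was above 1 in only 1 of 11 mice. Ly6a and Slamf1 gave 0.90, whereas Slamf1 gave 1.2 with Meis1, 1.06 with both Mecom and Procr, and 1.46 with Prdm16 on 20 cells. Ctla2a was detected in most of these cells, which bounds its ratios, and they lay between 1.04 and 1.06.

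**Figure D5:**
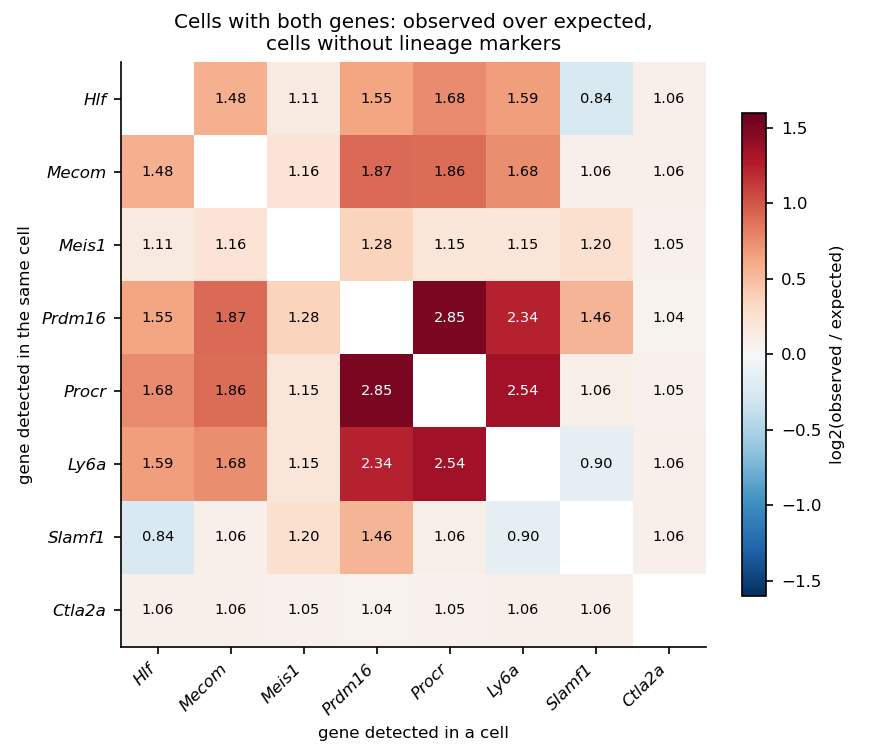
Observed over expected number of cells with both genes, for each pair of the 8 genes in cells without lineage markers (both axes list the genes, colour is the log2 ratio and the number is the ratio). Pairs among Hlf, Mecom, Prdm16, Procr and Ly6a lie above 1.4, and Hlf with Slamf1 lies at 0.84.

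At least 3 of the 8 genes were detected in 6566 thinned cells, 10.9% of the total. The share was 57.8% in stem-marker cells, 28.6% in other unmarked cells and 24.8% in megakaryocyte-lineage cells. It was 23.2% in the 237 lymphoid-primed cells and 2.28% in granulocyte-lineage cells. Stem-marker cells made up 40.1% of all such cells.

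By mouse the share was 13.5%, 17.7% and 30.2% in MxCre and 15.3%, 12.3%, 8.71% and 2.75% in Dnmt3a. It was 3.80%, 11.6% and 6.76% in Dnmt3a;Tnfr1KO and 8.02%, 10.1%, 8.16% and 11% in Dnmt3a;Tnfr2KO. Dnmt3a and MxCre means were 9.76 ± 5.39 (SD, n = 4) and 20.5 ± 8.69 (SD, n = 3). The difference of -10.7 percentage points did not pass an exact two-sided permutation test (p = 0.114, BH adjusted 0.457 over 4 comparisons). It was -5.84 points without MxCre replicate 3 and -5.61 points with cells thinned to 2500 UMIs. In Dnmt3a replicate 4, the mouse with 2.75%, 25.1% of thinned cells were B-lymphoid; their part in the difference was not tested. The other 3 differences were -2.38, -0.46 and 1.92 points, with exact permutation p-values of 0.571, 0.914 and 0.457.

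Cells without lineage markers that held 4 or more of the genes differed from those that held 1, compared within each of 14 mice by exact two-sided sign-flip tests over 19 measures. Summed interferon response genes were higher, at 1.90 against 1.09 UMIs per thinned cell, in 14 of 14 mice (exact adjusted p = 0.000232). Endothelial markers were also higher (0.825 against 0.616) in 14 of 14 mice. In cells without lineage markers most endothelial-list UMIs before thinning came from Egfl7 (26245) and Emcn (2721), against 52 (Ptprb) to 196 (Kdr) for each other marker. Stromal markers were lower (0.00488 against 0.204, exact adjusted p = 0.0143) in 9 of 14 mice, and the values behind 0.204 ran from 0 to 2.32 over the mice. The part of either list in the interferon difference was not tested. Cd48 was lower (0.530 against 0.838) and Mpo, a granule enzyme of committed myeloid cells, was lower (0.593 against 1.82), each in 14 of 14 mice. Elane, another granule enzyme gene, was 0.237 against 0.218 and did not pass (exact adjusted p = 0.527). Other genes of progenitors went the opposite way: Cd34 was higher (1.70 against 1.14) in 13 of 14 mice and Flt3, a cytokine receptor of multipotent and lymphoid progenitors, in 14 of 14 (0.177 against 0.0962; exact adjusted p = 0.000422 and 0.000232). Summed G2 and M phase genes were 6.71 against 7.96, lower in 11 of 14 mice (exact adjusted p = 0.0333). The sum did not fall steadily with gene number, at 6.95 in cells with 0 of the genes and 8.53 with 2. Mki67 alone did not pass (1.22 against 1.32, exact adjusted p = 0.431). Gata2 was lower (0.607 against 0.930) in 13 of 14 mice and Kit higher (1.22 against 0.824) in 14 of 14 (exact adjusted p = 0.00135 and 0.000232). The cells with 4 or more genes also had fewer UMIs before thinning, 13782 against 16975 in the mean, in 14 of 14 mice; its part in these differences was not tested.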

How the data were processed

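Droplet 3' libraries of 14 mice were processed by the authors with Cell Ranger 6.0.0 and bcl2fastq 2.20.0.422 on mm10/GRCm38, per the submitters' processing notes. The deposited matrices hold whole-number UMI counts, without normalization. Barcodes with at least 1000 UMIs, 500 genes and at most 10% mitochondrial UMIs were kept, and 3143 likely doublets were removed. Cells were thinned to 5000 UMIs for gating and detection; 6869 shallower cells entered only sums over all cells. A lineage gate needed 3 UMIs of its markers (granulocyte 6), set after marker distributions were seen, when Nkg7 was also dropped from the lymphoid gate. Sums per mouse were tested in 1 model of 4 groups with edgeR 4.0.16 (TMM, filterByExpr, quasi-likelihood test), with DESeq2 1.42.0 as an alternative (R 4.3.3, Python 3.11.15). The code was tested on simulated data. Library totals were 62416022 to 162869740 UMIs. All 8 genes are named in every comparison; from other lists up to 4 called genes of largest change whose mean level reached 10 CPM in 1 of the groups. The genes and lists were chosen with earlier results of these data known. Coordinates are from RefSeq on GRCm38.p6.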

Additional observations from a re-analysis of the deposited data

Results flagged for a closer look

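Prdm16 over all cells of Dnmt3a replicate 3 was 2.40 CPM, far from the other 3 mice of its group, which held 0.271 to 0.635. It is the mouse with Prdm16 UMIs across lineages described above. This was 1 of 50 groups of 4 mice examined for a value far from the rest, and chance alone gives about 1 in 20.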

How the results depend on the processing

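Replicate numbers gave no clear sign of pairing. Over 19 same-numbered pairs the correlation of deviations ran from -0.469 to 0.446 (median 0.037), and 8 exceeded 0.1. Of 54 pairs with different numbers 18 exceeded 0.1 (median -0.041). These correlations cannot exclude a shared donor or day. With the replicate number as a block, 3 genes were called in stem-marker cells for Dnmt3a against MxCre (Ly6a -1.06, edgeR adjusted p = 0.0375, in addition); signs turned for Mecom in Dnmt3a;Tnfr1KO against Dnmt3a (-0.021), and for Procr (-0.14) and Ly6a (-0.062) between the knockouts.

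For Dnmt3a against MxCre the number of genes called was 1 over all cells and 1 in cells without lineage markers. These became 3 (with Meis1 and Ctla2a) and 2 (with Ctla2a) with DESeq2, which called 5.96% to 9.87% of all genes over the 3 classes. Both became 0 with only the 2 groups in the fit, and also without Dnmt3a replicates 1 and 4 (left out after the data were seen). Leaving out 1 mouse gave 0 to 2 in each. In stem-marker cells the 2 calls became 4 with no filter on low counts (with Mecom and Ly6a), 1 without Dnmt3a replicates 1 and 4, and 1 to 2 without 1 mouse. The 0 calls of the other comparisons in stem-marker cells became 1 (Dnmt3a;Tnfr1KO against Dnmt3a), 2 (Dnmt3a;Tnfr2KO against Dnmt3a) and 1 (between the knockouts) with no filter, and 0 to 1 in each without 1 mouse. With DESeq2 there was 1 call between the knockouts, against 0.132% to 0.659% of all genes over the 3 classes. DESeq2 called 2 in the lineages, where it called 4.5% of all genes in Dnmt3a against MxCre. Shares of all genes called under the other settings, such as no filter and the replicate block, are not given here. The counts under those settings therefore have no background beside them. For Dnmt3a;Tnfr2KO against Dnmt3a, the share of cells with at least 2 of the genes differed by 1.94 points, where that with at least 3 differed by -0.46, which ran from -2.79 to 1.38 without 1 mouse.

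Among the log2 fold changes in stem-marker cells, and in all 3 classes for Dnmt3a against MxCre, these turned sign, none of them called. Without Dnmt3a replicates 1 and 4: Prdm16 over all cells against MxCre (0.067), and in stem-marker cells Slamf1 for Dnmt3a;Tnfr1KO (0.28), and Mecom (0.0015) and Slamf1 (0.13) for Dnmt3a;Tnfr2KO. Without TMM scaling: Meis1 for Dnmt3a (0.0082) and Mecom for Dnmt3a;Tnfr1KO (-0.13). Mecom for Dnmt3a;Tnfr1KO also turned with no filter (-0.0028). Without Dnmt3a;Tnfr1KO replicates 2 and 3: Mecom (-0.12) and Prdm16 (-0.067) against Dnmt3a, and between the knockouts Hlf (0.38), Meis1 (0.034), Ly6a (-0.13), Slamf1 (0.18) and Ctla2a (-0.00619). Leaving out 1 mouse gave ranges across 0 for Prdm16 over all cells (-1.82 to 0.24) and Hlf in cells without lineage markers (-0.048 to 0.21) in Dnmt3a against MxCre. In stem-marker cells such ranges were -0.14 to 0.15 for Mecom and -0.51 to 0.22 for Slamf1 in Dnmt3a;Tnfr1KO, and -0.45 to 0.067 for Slamf1 in Dnmt3a;Tnfr2KO. Between the knockouts they were -0.37 to 0.012 (Hlf), -0.11 to 0.024 (Meis1), -0.35 to 0.46 (Procr), -0.22 to 0.41 (Ly6a) and -0.32 to 0.29 (Slamf1). Over all cells and cells without lineage markers, 79 of 776 values of the other comparisons under an alternative turned sign, and 0 of the 776 were called. Prdm16 did so without Dnmt3a;Tnfr1KO replicates 2 and 3 in Dnmt3a;Tnfr1KO against Dnmt3a (2.68 to -2.41 and 1.53 to -0.58), and without Dnmt3a replicate 3 in Dnmt3a;Tnfr2KO against Dnmt3a (-0.91 to 0.37 and -0.18 to 0.071). The causes of these changes were not tested. Without TMM the median of all genes in stem-marker cells moved to -0.14 in both receptor comparisons with Dnmt3a. Prdm16, Procr and Slamf1 rested on few UMIs (69, 156 and 214 over the stem-marker cells of the 4 Dnmt3a mice), which limits their precision.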

Other observations

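Likeness to the 8 genes was measured over 105 sums of mouse and cell class among 7811 genes, as Pearson r on log2(CPM + 1). These sums share libraries and depth, and the values are descriptions. The genes with the highest mean r over all 8 were Pglyrp2 (0.73), a peptidoglycan amidase, Gcnt2 (0.73), Anxa4 (0.71), a calcium-binding annexin, Hdgfl3 (0.71) and Ctla2b (0.71). Gcnt2 is a gate marker. Single closest genes were Gcnt2 for Hlf (0.94), Hlf for Mecom (0.94), the gate marker Angpt1 for Meis1 (0.96), F2r for Slamf1 (0.90), Rgs1 for Ctla2a (0.94), Camk2d for Ly6a (0.86), Gm19590 for Procr (0.82) and Laptm4a for Prdm16 (0.64). Among the 8, Hlf and Mecom were most alike (0.94), Meis1 and Ctla2a followed closely at 0.89, and Ly6a and Slamf1 were least alike (0.14).

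Slamf6, a SLAM relative of Slamf1 found mainly on lymphoid cells, was higher over all cells in Dnmt3a than in MxCre mice (log2 fold change 3.84; edgeR adjusted p = 0.044). Its Dnmt3a values ran from 1.48 to 34.2 CPM, and B-lymphoid cells made up 0.266% to 25.1% of thinned cells in the same 4 mice. Their part in the Slamf6 difference was not tested.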
